A study of Mus musculus with 6 samples.

Results

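The genes described here encode tropomyosins, calponins, filamins, alpha-actinins, PDZ and LIM domain proteins, and the light and heavy chains of myosins. They were chosen by symbol: every probe set with 1 gene symbol in the platform annotation that belongs to the Tpm, Cnn2 and Cnn3, Fln, Actn, Pdlim, Myl, Myh or Myo families, without the smooth muscle myosin gene Myh11. This gave 62 genes of the 19505 with a symbol, each with 1 probe set. RNA came from whole adrenal glands of female mice aged 2 months, with 1 Affymetrix whole-transcript array per animal. Control mice (n = 3) were Mst1flox/flox;Mst2flox/flox without a Cre transgene, and mutant mice (n = 3) were Mst1flox/flox;Mst2flox/flox;Nr5a1-cre, so the floxed alleles were shared by both groups. Nr5a1-Cre is active in steroid-producing cells, and the cells of the capsule, vessels and medulla in the same glands are not its main target. The comparison was mutant against control. No wild-type or Cre-only group was analysed here, so an effect of the transgene itself cannot be told apart from loss of the kinases.

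Actin filaments give cells their shape and tension. Tropomyosins lie along the filament and decide which other proteins reach it, calponins bind and steady it, filamins and alpha-actinins link filaments to each other and to the membrane, and myosins pull on it using heavy chains that burn ATP and light chains that regulate them. In the Hippo pathway the kinases MST1 (gene Stk4) and MST2 (gene Stk3) restrain the coactivators YAP and TAZ, which are also known to respond to actin tension. Many cytoskeletal genes are known targets of serum response factor, SRF, which binds a DNA element called the CArG box. YAP and TAZ reach DNA through TEAD factors.

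Values are the log2 signals deposited for each probe set, and a log2 difference of 1 is a doubling of signal. Array medians lay between 6.76 and 6.83. Stk4 measured 8.32, 8.66 and 8.94 in control animals and 8.14, 8.36 and 8.46 in mutant animals, so the groups overlapped. Stk3 was not analysed here. The sources do not say whether the Stk4 probes cover the deleted exons, so this value does not check the genotypes. Adrenal markers were bright: the 6 cortex genes averaged 18.06 to 18.18 per animal, the 5 medulla genes 14.95 to 15.98, and all 5 kidney genes were dim. A gene is called dim here when both group means fall inside 2.53 to 7.32, the span of signals from probe sets made to measure background.

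In mutant glands 45 of these genes measured higher and 17 lower, but 0 of the 62 genes passed the test over all probe sets. That test was limma's moderated test with Benjamini-Hochberg adjustment over 22206 probe sets, which called 0.0721% of them at an adjusted p under 0.05. At an unadjusted p under 0.05, 12 members were higher and 1 was lower, or 19.4% and 1.61% of the 62, where 5.42% of all probe sets were higher and 4.96% lower. The 12 higher members were Cnn2, Tpm2, Flna, Myl12a, Myl9, Tpm1, Myl10, Tpm4, Flnc, Myl6b, Pdlim1 and Myl12b, and the lower one was Pdlim5. The groups did not overlap, with all 3 mutants above all 3 controls, for 14 members, or 22.6%, against 8% of all probe sets, and with all mutants below for 1, against 8.36%. The members' median log2 change was 0.12, where the median over all probe sets was -0.01, and the 45 higher members were 72.6% of the set, against 48% of all probe sets. The count of 12 was 7 without control 1, 7 without control 2 and 6 without mutant 3, and it was 7 when the arrays were shifted to a common median. In the same runs, in that order, 4.22%, 4.25%, 5.53% and 4.66% of all probe sets were higher. With the shift to a common median 41 members were above 0, and Myh6, Myo1e, Myo9b and Pdlim2 turned from just above 0 to below it. The number of lower members at an unadjusted p under 0.05 was 2 without mutant 1 and 3 without mutant 3, where 3.98% and 4.7% of all probe sets were lower.

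The signal level divided the members. Of the 62 genes, 30 had a mean above the background range and 32 lay within it in both groups. Among the 30 brighter genes 9 were higher and 1 was lower at an unadjusted p under 0.05, or 30% and 3.33%, where all probe sets of that brightness gave 6.83% and 6.28%. The mutants all lay above the controls for 10 of them (33.3%) and below for 1, beside 10.5% and 11.7% of such probe sets, and 25 of the 30 changes were above 0, beside 46.3%. Their median log2 change was 0.20, and it was -0.02 over all probe sets as bright. The 32 dim members gave 3 higher and 0 lower genes at that level of limma's test, or 9.38% and 0%, where all probe sets as dim gave 4.24% and 3.86%. By the adjusted p 0 passed, and the median change was 0.05. A list of 17 members taken as muscle genes, such as Myh1, Myl2, Actn2 and Myl10, was dim throughout, and their changes had a median of 0.05. Of these, 1 (Myl10) was higher and 0 lower at an unadjusted p under 0.05, beside 4.24% and 3.86% of all probe sets as dim.

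**Figure D1:**
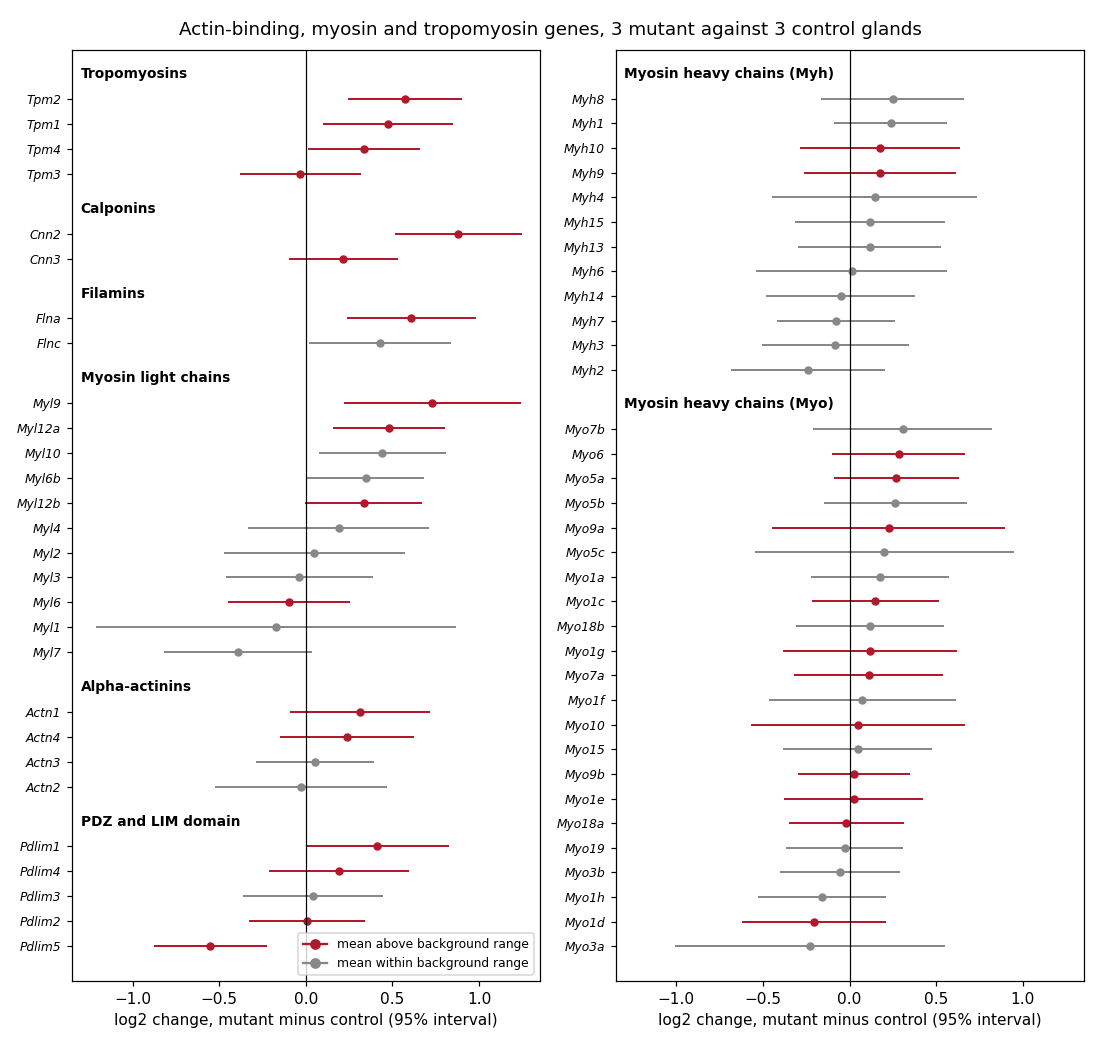
Log2 change of each of the 62 genes, mutant minus control, with its 95% interval from limma, grouped by family, in red where the mean signal was above the background range and in grey where it was within. Tropomyosins other than Tpm3, both calponins, both filamins and several light chains lie to the right of 0, and Pdlim5 lies to the left. Of the heavy chains, 8 of 12 Myh and 16 of 22 Myo genes also lie to the right of 0. Every heavy chain interval includes 0, and so does that of Cnn3.

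**Figure D2:**
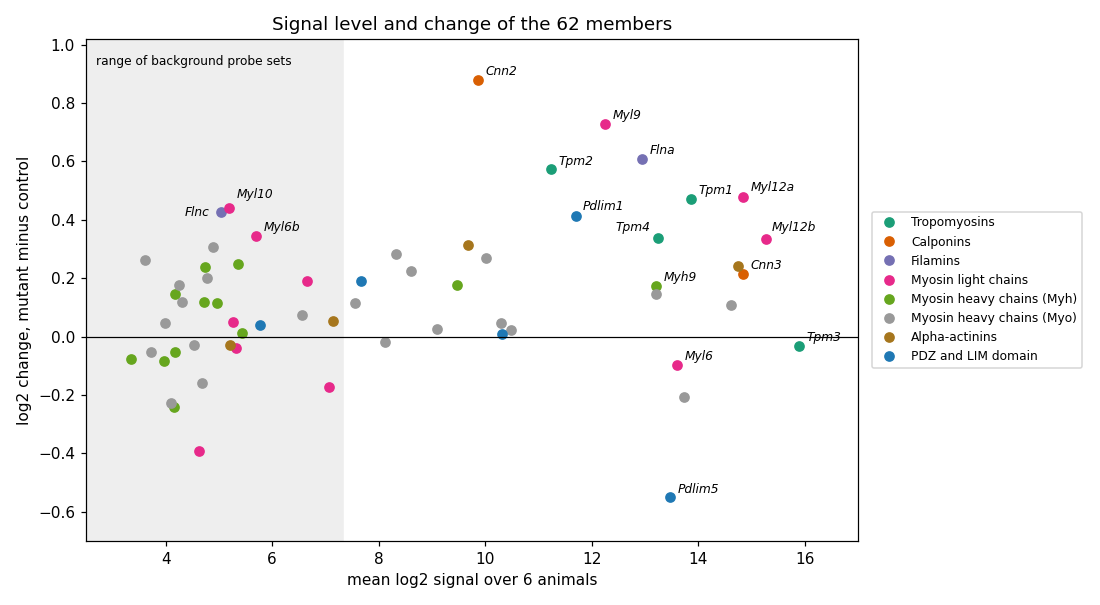
Mean log2 signal over the 6 animals (horizontal) against log2 change (vertical) for the 62 genes, coloured by family, with the range of background probe sets shaded. Cnn2 has the largest change, 0.88, and Pdlim5 the lowest, -0.55, and both are above the shaded range.

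RefSeq promoter windows, 250 bases before to 50 after the annotated start in GRCm38.p6, were at hand for 56 of the 62 genes. The search looked for the TEAD motif GGAATG and its reverse complement CATTCC, and for the CArG box, in any window of a gene. The CArG box reads the same way on both strands, and it can share its last letters with the TEAD motif, which no member's window showed. A CArG box was present for 8 of the 56 genes, 14.3%, against 1.81% of 27025 genes with a window. The TEAD motif was present for 19, 33.9%, against 16.6%. Of the genes with a CArG box, Cnn2, Myl9, Myl6 and Myo1e were above the background range, and Myl7, Myh13, Myh4 and Myl3 were dim. Genes with the TEAD motif were also of both kinds. Of these, Flnc, Myl7, Myh1, Myo1h, Myh15, Myh4, Myh7, Myl1, Pdlim3, Myl3 and Myh6 were dim, and the others lay above the background range. Among the 13 members of unadjusted p under 0.05, 2 held a CArG box (15.4%) and 4 the TEAD motif (30.8%), beside 14% and 34.9% of the other 43, a difference that was not tested. The 250 bases before the start are shown for 4 of the higher genes that hold a motif and, for contrast, for Myl6, which holds a CArG box and changed little. Capitals mark the motif, which is a CArG box in Cnn2, Myl9 and Myl6 and the TEAD motif in Tpm1 and Flna, each written 5′ to 3′ on the strand of the gene.
Cnn2, chr10:79988350-79988599, plus strand: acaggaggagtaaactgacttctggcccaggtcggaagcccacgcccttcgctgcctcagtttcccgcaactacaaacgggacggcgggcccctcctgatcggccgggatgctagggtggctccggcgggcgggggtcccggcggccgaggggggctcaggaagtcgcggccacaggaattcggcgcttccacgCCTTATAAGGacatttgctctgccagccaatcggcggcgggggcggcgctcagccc
Myl9, chr2:156775214-156775463, plus strand: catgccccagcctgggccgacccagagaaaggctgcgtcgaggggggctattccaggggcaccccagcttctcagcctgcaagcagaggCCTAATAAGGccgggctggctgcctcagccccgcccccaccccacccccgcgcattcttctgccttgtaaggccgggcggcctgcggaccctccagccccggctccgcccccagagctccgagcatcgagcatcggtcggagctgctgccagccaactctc
Myl6, chr10:128493010-128493259, minus strand: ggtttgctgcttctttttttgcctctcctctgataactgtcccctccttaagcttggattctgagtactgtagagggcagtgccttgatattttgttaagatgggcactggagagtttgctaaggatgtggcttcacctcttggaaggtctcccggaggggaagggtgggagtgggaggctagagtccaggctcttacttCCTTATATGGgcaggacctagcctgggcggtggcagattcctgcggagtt
Tpm1, chr9:67049214-67049463, minus strand: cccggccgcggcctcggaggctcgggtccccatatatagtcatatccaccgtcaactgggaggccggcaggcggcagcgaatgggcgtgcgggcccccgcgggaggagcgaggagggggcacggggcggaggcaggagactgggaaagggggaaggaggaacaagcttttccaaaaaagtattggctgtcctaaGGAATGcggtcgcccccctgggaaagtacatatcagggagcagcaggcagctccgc
Flna, chrX:74246535-74246784, minus strand: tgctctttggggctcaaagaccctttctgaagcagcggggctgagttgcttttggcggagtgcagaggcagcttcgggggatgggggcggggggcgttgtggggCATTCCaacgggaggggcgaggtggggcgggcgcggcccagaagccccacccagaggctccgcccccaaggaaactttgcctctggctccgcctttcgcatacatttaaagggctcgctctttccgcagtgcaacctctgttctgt
The CArG box began 56 bases before the start in Cnn2, 161 in Myl9 and 50 in Myl6, and the TEAD motif 56 bases before it in Tpm1 and 146 in Flna. A match of letters is no evidence that a factor binds there.

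Tropomyosins were higher in mutant glands for 3 of the 4 genes, with Tpm3 level. Tpm2, the gene for beta-tropomyosin, measured 11.00, 10.89 and 10.96 in control animals and 11.40, 11.60 and 11.57 in mutant animals. The 3 mutants were close together and all lay above the controls, with a log2 change of 0.57 (SE 0.14, 1.49-fold, limma adjusted p = 0.222). Tpm1, the gene for alpha-tropomyosin, measured 13.85, 13.45 and 13.56 in control animals and 14.00, 14.07 and 14.21 in mutant animals. Control 1 came nearest to the mutants, and the change was 0.47 (SE 0.16, limma adjusted p = 0.368). Tpm4, a tropomyosin of non-muscle cells, measured 13.07, 13.02 and 13.16 against 13.50, 13.42 and 13.34, without overlap, a change of 0.34 (SE 0.14, limma adjusted p = 0.453). Tpm3, which encodes a further tropomyosin of both muscle and non-muscle cells, measured 15.86, 15.79 and 16.06 against 15.99, 15.84 and 15.78. Its groups overlapped fully, and the change was -0.03 with a 95% interval from -0.37 to 0.31. Tropomyosin genes each give several isoforms by splicing and alternative starts, and 1 probe set per gene does not separate them.

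The calponin Cnn2, which steadies actin filaments in many non-muscle cells, had the smallest p of all members. It measured 9.42, 9.40 and 9.44 in control animals and 10.11, 10.53 and 10.27 in mutant animals. The controls lay within a few hundredths of each other and every mutant was well above them, a log2 change of 0.88 (SE 0.16, 1.84-fold, limma adjusted p = 0.0995, 95% interval 0.52 to 1.24). Its adjusted p was 0.0389 with a trend of variance on signal level, 0.0316 with that trend and a robust prior, and 0.039 over only the probe sets above the median level. Over all alternatives it ran from 0.0316 to 0.336. Cnn3, the acidic calponin, measured 14.81, 14.68 and 14.73 against 14.94, 14.97 and 14.94. Its groups did not overlap either, but the difference was small, 0.22 (SE 0.13, limma adjusted p = 0.643).

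Filamins cross-link actin into loose networks and tie them to the membrane. Flna, the broadly expressed filamin, measured 12.52, 12.54 and 12.87 in control animals and 13.35, 13.28 and 13.13 in mutant animals. Control 3 stood above the other controls and still below every mutant, and the log2 change was 0.61 (SE 0.16, 1.52-fold, limma adjusted p = 0.255). Flnc, the filamin of striated muscle, which was not on the list of 17, was dim in all animals, at 4.83, 4.97 and 4.68 against 5.13, 5.09 and 5.54. Its difference of 0.43 (SE 0.18, limma adjusted p = 0.456) is between signals not told apart from background.

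Alpha-actinins bundle filaments side by side. The non-muscle genes Actn1 and Actn4 had log2 changes of 0.31 and 0.24, each with an SE of 0.17 (limma adjusted p = 0.591 and 0.685). Actn1 measured 9.77, 9.25 and 9.55 in control animals and 9.94, 9.75 and 9.83 in mutant animals, so mutant 2 lay just below control 1. Actn4 measured 14.73, 14.37 and 14.76 against 14.92, 14.94 and 14.72, with mutant 3 among the controls. The sarcomere genes Actn2 and Actn3 were dim, with changes of -0.03 and 0.05.

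The PDZ and LIM domain genes, whose proteins bring kinases and other partners to alpha-actinin and the filament, held the one member that was lower at an unadjusted p under 0.05. Pdlim5, also known as ENH, measured 13.74, 13.69 and 13.82 in control animals and 13.10, 13.29 and 13.22 in mutant animals. All mutants lay below all controls, by 0.55 log2 units in the mean (change -0.55, SE 0.14, limma adjusted p = 0.237, 95% interval -0.87 to -0.23). Pdlim1, also known as CLP36 or Elfin, went the other way, at 11.50, 11.19 and 11.77 against 11.91, 11.97 and 11.83. Here control 3 lay just below mutant 3, and the change was 0.41 (SE 0.18, limma adjusted p = 0.475). The remaining genes Pdlim2, Pdlim3 and Pdlim4 had changes of 0.01, 0.04 and 0.19, with limma adjusted p from 0.768 to 0.992.

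Of the 11 myosin light chains 7 measured higher, 5 of them at an unadjusted p under 0.05: the regulatory chains Myl9, Myl12a and Myl12b, which were bright, and Myl10 and Myl6b, which were dim. Myl9, a regulatory chain found in smooth muscle and non-muscle cells, measured 11.90, 11.44 and 12.30 in control animals and 12.54, 12.74 and 12.56 in mutant animals. The controls were spread over almost a whole log2 unit and the mutants were tight, and the change was 0.73 (SE 0.22, 1.66-fold, limma adjusted p = 0.315). Myl12a measured 14.68, 14.59 and 14.52 against 15.03, 15.16 and 15.04, a change of 0.48 (SE 0.14, 1.39-fold, limma adjusted p = 0.297). Myl12b measured 15.14, 15.08 and 15.07 against 15.30, 15.59 and 15.40, a change of 0.33 (SE 0.14, limma adjusted p = 0.477). Neither of these regulatory chains overlapped between groups. Myl12a and Myl12b are near-identical genes, and whether their probes separate them was not given in the sources used here. The essential chain Myl6, the partner of these chains on non-muscle myosin, measured 13.65, 13.71 and 13.60 against 13.46, 13.45 and 13.75. Mutant 3 was above all controls and the other mutants below them, and the change was -0.10 (SE 0.15, 95% interval -0.44 to 0.25). The other 7 light chains were dim. Myl10 measured 4.88, 5.01 and 5.02 in control animals and 5.64, 5.27 and 5.31 in mutant animals, without overlap (log2 change 0.44, SE 0.16, limma adjusted p = 0.39). Myl6b measured 5.52, 5.56 and 5.48 against 5.75, 6.02 and 5.84, also without overlap (0.34, SE 0.14, limma adjusted p = 0.465). The atrial chain Myl7 had a change of -0.39, with overlap. Myl1, a fast skeletal chain, had 1 animal apart, mutant 1 at 8.19, with the other animals between 6.27 and 7.33.

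**Figure D3:**
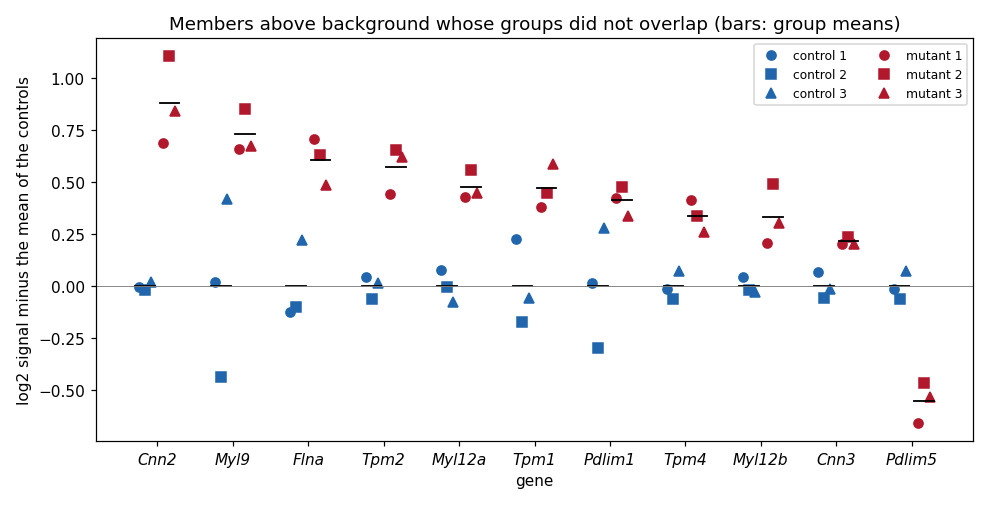
Log2 signal of each animal minus the mean of the controls (vertical) for the 11 genes above background whose groups did not overlap, with controls in blue, mutants in red, a marker shape per replicate number and bars at group means. Mutants lie above every control for 10 genes from Cnn2 to Cnn3 and below for Pdlim5, and the controls of Myl9 are spread more widely than those of Cnn2.

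The myosin heavy chains gave 0 genes at an unadjusted p under 0.05 by limma's test, and 0 adjusted, in either the 12 Myh or the 22 Myo genes, where 5.42% of all probe sets were higher and 4.96% lower at the unadjusted level. Myh9, the heavy chain of non-muscle myosin IIA, measured 12.88, 13.05 and 13.44 in control animals and 13.50, 13.18 and 13.20 in mutant animals. The groups overlapped because control 3 lay above mutants 2 and 3, and the log2 change of 0.17 (SE 0.19) had a 95% interval from -0.26 to 0.61. Myh10, the heavy chain of myosin IIB, measured 9.44, 9.10 and 9.57 against 9.79, 9.61 and 9.24, and its change of 0.18 (SE 0.20) had an interval from -0.28 to 0.63. These intervals include the changes measured for the regulatory light chains Myl12a and Myl12b and end below that of Myl9, 0.73. The 95% interval of Myl9 itself, 0.22 to 1.24, overlaps both. A difference between the heavy and the light chains was not tested. The 10 other Myh genes were dim in both groups, with changes from -0.24 for Myh2 to 0.25 for Myh8. They include the sarcomeric heavy chains, which resemble each other in sequence, so their probe sets are uncertain as readouts of single genes. Of them, only Myh1 did not overlap, at 4.59, 4.58 and 4.66 against 4.82, 4.76 and 4.96.

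Unconventional myosins carry cargo or tether membranes to actin. Of the 22 Myo genes, 16 had changes above 0 (14 after the shift to a common median) and 0 kept the groups apart, with a median change of 0.09. Of all probe sets 48% were above 0, and 8% kept the groups apart as higher and 8.36% as lower. The 11 genes above background ran from -0.21 for Myo1d to 0.28 for Myo6, with limma adjusted p from 0.61 to 0.98. Myo6, which moves towards the minus end of the filament, measured 8.09, 8.27 and 8.18 in control animals and 8.20, 8.64 and 8.54 in mutant animals, with mutant 1 inside the control range. Myo5a, a carrier of vesicles and granules, measured 9.99, 9.85 and 9.80 against 10.33, 9.98 and 10.13, with mutant 2 just below control 1. Myo7a, known for its role in hair cells of the inner ear, was bright, at 14.63, 14.71 and 14.36 against 14.98, 14.56 and 14.49, and the groups overlapped (0.11, SE 0.19). Myo1d, a class I myosin that binds membrane, measured 13.76, 13.62 and 14.14 against 13.71, 13.48 and 13.72. Myo1e, another class I myosin, had a change of 0.02 (SE 0.17). Myo10, which builds filopodia, had its widest values among controls, 9.98 to 10.83, overlapping the mutants at 9.96 to 10.54. The dim Myo genes included Myo7b (0.31) and Myo3a (-0.23), where control 2 stood at 5.07 and all other animals at 4.23 or lower.

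Within families the change was uneven. The log2 gap between Tpm2 and Tpm3 in the same animal was -4.86, -4.90 and -5.09 in control animals and -4.60, -4.23 and -4.21 in mutant animals, so it narrowed in every mutant. The gap between Cnn2 and Cnn3 went from between -5.39 and -5.28 to between -4.83 and -4.45. Pdlim1 minus Pdlim5 shifted by 0.96, and Myl9 minus Myl6 by 0.83, and neither overlapped between groups. Actn1 minus Actn4 shifted by 0.07, Myh10 minus Myh9 by 0.00 and Myo6 minus Myo1d by 0.49, each with overlap. In each family these are the brighter genes with the highest and the lowest change, so every shift is upward by choice. The gaps describe the range and carry no test. Family means over the genes above background kept the groups apart for tropomyosins, with 13.29 to 13.44 in controls and 13.72 to 13.73 in mutants, and for light chains, with 13.71 to 13.87 and 14.08 to 14.23. The Myo mean overlapped, at 10.23 to 10.43 and 10.36 to 10.51.

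Other genes of the actin system were described from 3 lists. Of 5 actin genes measured, Acta2, the smooth muscle actin, was higher in all mutants (log2 change 0.78, SE 0.20, limma adjusted p = 0.245), whereas Actb, the main cytoplasmic actin, measured 17.98, 17.96 and 17.93 against 18.08, 17.95 and 17.94. Actb overlapped between groups, and at such a bright signal saturation, not assessed here, would make a difference look smaller. Acta1, Actg2 and Actc1 were dim. Among 21 genes that control the light chains or SRF, 3 were higher and 1 lower at an unadjusted p under 0.05, beside 5.42% and 4.96% of all probe sets, and 0 passed after adjustment. The myosin light chain kinase gene Mylk had a change of 1.004 (SE 0.25, limma adjusted p = 0.226) and Mrtfb, a coactivator of SRF, 0.45 (SE 0.19, limma adjusted p = 0.468). Myocd, the smooth and heart muscle coactivator of SRF, was dim in both groups (-0.40, SE 0.17).

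Among 48 genes of filament assembly, severing and bundling, 8 were higher and 4 lower at an unadjusted p under 0.05, beside 5.42% and 4.96% of all probe sets, and 0 passed after adjustment. Ablim1, a LIM protein that binds actin, measured 8.45, 8.90 and 9.62 in control animals and 10.83, 10.56 and 10.39 in mutant animals (log2 change 1.61, SE 0.29, 3.05-fold, limma adjusted p = 0.0989). Its mutants were all well above its widely spread controls. Cald1, the caldesmon gene, whose protein restrains myosin on the filament, had a change of 0.80 (SE 0.18, limma adjusted p = 0.183), and Palld, a scaffold of actin bundles, 0.57 (SE 0.17, limma adjusted p = 0.308). The 4 lower genes, given after their values were seen, were Ezr, Tmod2, Tmod4 and Arpc5. Ezr, which links filaments to the membrane, changed by -0.53, and the Arp2/3 subunit gene Arpc5 by -0.34. The filament cappers Tmod2 and Tmod4 changed by -0.51 and -0.57. Tmod4 was dim. The mutant mean of Tmod2, 6.83, lay within the background range and its control mean, 7.34, just above it. The median change of this list was 0.10 and that of the light chain and SRF list 0.06, both beside -0.01 over all probe sets.

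Marker lists of other cell types were set beside the members, and 0 of their genes passed an adjusted p of 0.05. In whole glands, more cells of a type and more RNA per cell cannot be told apart, and Tpm1, Tpm2, Myl9, Cnn2 and Flna are known from vessels and connective tissue as well as from other cells. Of 9 smooth muscle and pericyte markers 7 measured higher, 4 of them at an unadjusted p under 0.05. At that level 5.42% of all probe sets were higher and 4.96% lower. The list means were 9.01 to 9.33 in controls and 9.44 to 9.70 in mutants. Among its smooth muscle genes, Cnn1, Myh11 and Lmod1 were dim in both groups, with log2 changes of -0.29, -0.07 and 0.22. Acta2, Tagln, Smtn and Des lay above the background range, with changes of 0.78, 0.29, 0.44 and 0.29. All 5 endothelial markers measured higher, 4 of them at that level (12.50 to 12.77 against 13.12 to 13.18). All 6 fibroblast markers measured higher, 3 of them at that level (10.23 to 10.83 against 10.77 to 11.73, overlapping). All 4 blood and immune markers measured were higher too, 1 of them at that level (7.87 to 8.19 against 8.14 to 8.52, overlapping). Adipocyte markers were higher for 10 of 10, with 0 at that level, and overlapped widely (7.61 to 10.58 against 8.81 to 11.94). Cortex markers had a median change of -0.02, and medulla markers of -0.32, with 5 of 5 lower and control 2 highest at 15.98. The cortex markers, at mean signals of 17.15 to 18.59, were about as bright as Actb. Saturation, not assessed here, would make their differences look smaller too. The part of these cells in the differences of the members was not tested. All 12 skeletal muscle markers, such as Ckm and Ttn, and all 6 heart markers were dim, and the skeletal list averaged 4.61 to 4.94 in controls and 4.73 to 4.83 in mutants.

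The genes outside the set whose signals over the 6 animals were most like the mean of the 32 members above the median level of all probe sets were Ogn, Itsn1, Pds5b, Ccdc3 and Timp2, out of 19443 searched. Their Pearson correlations with that mean were 0.991 to 0.996. They were chosen as the highest of all, the 6 points share arrays and groups, and the values are a description only. Ogn, a small proteoglycan of connective tissue, measured 15.32, 14.97 and 15.52 in control animals and 15.97, 15.72 and 15.65 in mutant animals, with control 2 lowest as in many of the members.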

How the data were processed

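Whole adrenal glands of 3 control and 3 mutant mice were measured, 1 array each. The labels name the animals separately, so replicates are different animals. The authors deposited a log2 signal for every probe set and animal. That the scale is log2 follows from the range of values. Transcriptome Analysis Console 4.0 is named by the submitters' processing notes. For normalization, summarisation and genome build, nothing is stated in the sources used here. Forcing arrays to 1 distribution would hide a shift common to most genes. Log2 array signals compress differences at the dim and the bright end.

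After 6640 control probe sets were left out, 22206 were tested with limma 3.58.1 (lmFit, then eBayes; R 4.3.3), two-sided, over all 6 arrays without covariates, with an adjusted p threshold of 0.05. SEs and 95% intervals belong to that fit. Each gene stands for its brightest probe set. All 62 members matched the NCBI gene table of GRCm38.p6, with 0 symbols changed. The fit was checked on simulated data. With 3 animals per group, precision is low.

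The members and the gene lists were chosen with earlier results of these data known, so their counts are descriptions beside the share over all probe sets and no list was tested. The rule for named genes took members with an unadjusted p under 0.05 whose groups did not overlap, the brightest and most changed genes of each family, and up to 3 genes of smallest p in each list of other genes, 1 of which is not reported here. Values by animal are given for the members the results turn on. Myh1, Myh10, Myl6, Myl1, Myo1d, Myo1e, Myo5a, Myo6 and Myo10 were added after their values were seen.

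Alternatives changed the scaling (quantile, or a common median for all arrays), the probe sets tested (above the median level, or with a symbol), the variance model (trend, trend and robust, array weights), the covariates (replicate number as a block, intron control signal, adipocyte signal), the animals (each left out), the use of a gene's probe sets (their mean) and the threshold (0.1).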

Additional observations from a re-analysis of the deposited data

How the results depend on the processing

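The number of members past the adjusted threshold was 0 in the limma fit reported and 1 (Cnn2) at a threshold of 0.1, over only the probe sets above the median level, and with a variance trend. It was 3 (Cnn2, Myl12a and Pdlim5) with trend and robust, and 0 in the other alternatives run. Calls over all 22206 probe sets rose as well, from 16 in the limma fit reported to 145 with the trend and 175 with trend and robust. Over only the probe sets above the median level 92 of 11103 were called. At an unadjusted p under 0.05 the 12 higher members became 7 with arrays shifted to a common median and 7 with the replicate number as a block. In those runs 4.66% and 5% of all probe sets were higher. No pairing by replicate number was seen in the values, though with 3 animals per group they cannot exclude one. Deviations from the group means of same-numbered animals correlated at -0.09, 0.08 and -0.07, and not every animal correlated best with its own number. Leaving out 1 animal gave 6 to 10 higher and 1 to 3 lower members. Of all probe sets 4.22% to 5.63% were then higher and 3.41% to 5.94% lower. The members' median change stayed above 0 in every alternative run, from 0.09 with the common median shift to 0.18 over the probe sets above the median level, where 32 members were left. All 13 genes at an unadjusted p under 0.05 kept their sign in every alternative run, and 6 of them, Cnn2, Tpm2, Pdlim5, Flna, Myl12a and Myl9, kept that p in every one. Tpm4, Pdlim1, Myl12b, Flnc and Myl6b lost it with the common median shift. The cause of these shifts was not tested. Signal over background limits the 32 dim members, whose differences may be compressed.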
